A study of Mus musculus with 24 samples.

Results

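The indirect pathway of the striatum was examined through 6 genes, *Drd2*, *Adora2a*, *Gpr6*, *Gpr52*, *Penk* and *Sp9*, picked by symbol from the 24079 genes of the count table and followed through all 24 libraries. Medium spiny neurons, the projection neurons of the striatum, fall into a direct-pathway class that carries the dopamine D1 receptor and an indirect-pathway class that carries the dopamine D2 receptor and projects to the globus pallidus. In indirect-pathway neurons the D2 receptor inhibits adenylyl cyclase through inhibitory G proteins, whereas the adenosine A2a receptor stimulates it, so the pair set cAMP in opposite directions. *Drd2* encodes the D2 receptor and *Adora2a* the A2a receptor, *Gpr6* and *Gpr52* encode orphan G protein-coupled receptors, *Penk* encodes the precursor of the enkephalin peptides, and *Sp9* encodes a zinc finger transcription factor needed to form these neurons. *Drd2* is also transcribed in cholinergic interneurons and dopamine neurons, *Adora2a* in several other cell types, and *Penk* in other neurons and some glia, so none of these RNAs comes from one cell class alone.

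Libraries came from the nucleus accumbens (Acb, the ventral striatum) and the dorsal striatum (DS) of rpS6 knockin mice, in which the phosphorylation sites of ribosomal protein S6 are replaced by alanine, and of their wild-type littermates, on a mixed C57Bl/6/Sv129/ICR background with males and females. Each of the 8 combinations of region, genotype and kind of RNA had 3 libraries, made from the pooled tissue of several mice for which the labels name neither an age nor a drug. RNA was taken from the whole cytosolic lysate and from heavy polysomal fractions, the part of a sucrose gradient in which an mRNA carries more than 4 ribosomes per the labels, or at least 4 per the methods. Because the mutation only swaps residues of ribosomal protein S6, the number of *Rps6* reads is no check on which mice carried it. Libraries held 9280589 to 34703044 reads assigned to genes, with a median of 16678553, and replicates differed by more than sampling noise in every group. The noncoding RNA *Bc1* took 15.2 to 26.1% of reads in lysates and 0.897 to 3.85% in heavy polysomal fractions, and levels are therefore given as CPM, counts scaled to library size after TMM normalization, which sets libraries on a common scale from the bulk of the genes. Errors are SD over 3 libraries, log2 differences carry their standard error (SE), and adjusted p denotes edgeR's quasi-likelihood test with Benjamini-Hochberg adjustment over all genes tested, with 0.05 as the threshold. Because mice were pooled, p-values measure the spread between these pools and not between single animals.

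All 6 genes had reads in every library and passed the filter on low counts in every comparison. *Penk* held 493188 reads over the 24 libraries, and 45 genes in the table had more. *Adora2a* held 78081, *Drd2* 37745, *Gpr52* 12136, *Gpr6* 9503 and *Sp9* 3520 reads. The smallest count in any library was 45 reads, for *Sp9*, and the smallest for *Gpr52* was 68, so the values of these genes rest on fewer reads than those of *Penk*, which never fell under 6132. The SD of log2 levels within groups was 0.15 for *Adora2a*, lower than for all but 8.57% of the 11979 genes with enough reads. It was 0.27 for *Drd2* and 0.28 for *Penk*, close to the median gene at 0.28, and 0.41 for *Gpr6*, 0.43 for *Gpr52* and 0.44 for *Sp9*.

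On the mouse genome (GRCm38.p6), *Drd2* lies on chromosome 9 from 49340360 to 49408177 on the plus strand, with 8 exons in its longest GENCODE M21 transcript of 2547 bases. *Adora2a* lies on chromosome 10 from 75316877 to 75334792 on the plus strand, and *Gpr6* on the same chromosome from 41069977 to 41072290 on the minus strand. *Gpr52* lies on chromosome 1 from 160574717 to 160579704, wholly inside the span of *Rabgap1l*, which runs on the minus strand. The strand of *Gpr52* was not found in the annotation used. Whether strand-specific counting keeps its reads apart from those of *Rabgap1l* is therefore not known here. *Penk* lies on chromosome 4 from 4133536 to 4138815 on the minus strand and shares 495 bases with the antisense transcript *A830012C17Rik*, which the authors' strand-specific counting keeps apart. *Sp9* lies on chromosome 2 from 73271926 to 73275771 on the plus strand. Sequence just upstream of the start site was found in RefSeq (GRCm38.p6) for 3 of the 6 genes and is shown for these. Capitals mark a GC box (GGGCGG, or CCGCCC on the other strand) or a cAMP response element (TGACGTCA), and each line reads 5′ to 3′ along the gene's own strand.
Drd2, chr9:49340153-49340359, plus strand: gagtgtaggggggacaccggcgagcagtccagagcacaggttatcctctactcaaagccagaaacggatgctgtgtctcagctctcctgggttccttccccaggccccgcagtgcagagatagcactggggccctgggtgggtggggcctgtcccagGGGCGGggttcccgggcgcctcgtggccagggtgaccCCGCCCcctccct
Gpr6, chr10:41072291-41072540, minus strand: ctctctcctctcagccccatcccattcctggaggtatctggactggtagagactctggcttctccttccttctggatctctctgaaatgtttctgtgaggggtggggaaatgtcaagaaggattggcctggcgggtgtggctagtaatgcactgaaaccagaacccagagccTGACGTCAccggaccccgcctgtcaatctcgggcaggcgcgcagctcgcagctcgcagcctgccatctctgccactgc
Sp9, chr2:73271676-73271924, plus strand: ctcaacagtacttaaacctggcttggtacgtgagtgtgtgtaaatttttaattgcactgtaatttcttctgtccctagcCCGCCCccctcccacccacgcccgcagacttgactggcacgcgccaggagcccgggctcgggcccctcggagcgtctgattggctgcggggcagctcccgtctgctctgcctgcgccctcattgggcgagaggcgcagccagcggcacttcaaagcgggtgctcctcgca
The *Drd2* sequence held a GC box on each strand, beginning 50 and 13 bases before the end of the printed stretch, and that of *Sp9* held 1 on the other strand, beginning 170 bases before its end. The *Gpr6* sequence held the cAMP response element, beginning 78 bases before its end. Among 32851 promoter windows of the mouse genome, 35.66% held the GC box and 1.79% the response element. Another motif, the TATA box (TATAAA, searched on both strands), stood in 13.62% of windows and in 0 of these 3. Such matches describe the letters only and say nothing of what binds there.

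Compared per kilobase of the longest transcript, *Penk* was the highest of the 5 genes with a known length in every group, and *Sp9* the lowest. In wild-type lysates of the DS, *Penk* stood at 373 ± 15.5 CPM per kilobase (SD, n = 3), *Adora2a* at 70.9 ± 6.29, *Drd2* at 41.0 ± 3.69, *Gpr6* at 8.50 ± 1.0 and *Sp9* at 1.81 ± 0.43. In the same lysates of the Acb the values were 666 ± 107 for *Penk*, 56.6 ± 2.60 for *Adora2a*, 29.7 ± 6.58 for *Drd2*, 10.5 ± 3.43 for *Gpr6* and 2.44 ± 0.35 for *Sp9*. The order of the genes was thus the same in the 2 regions, while the distance between the peptide precursor and the receptors was wider in the Acb.

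**Figure D1:**
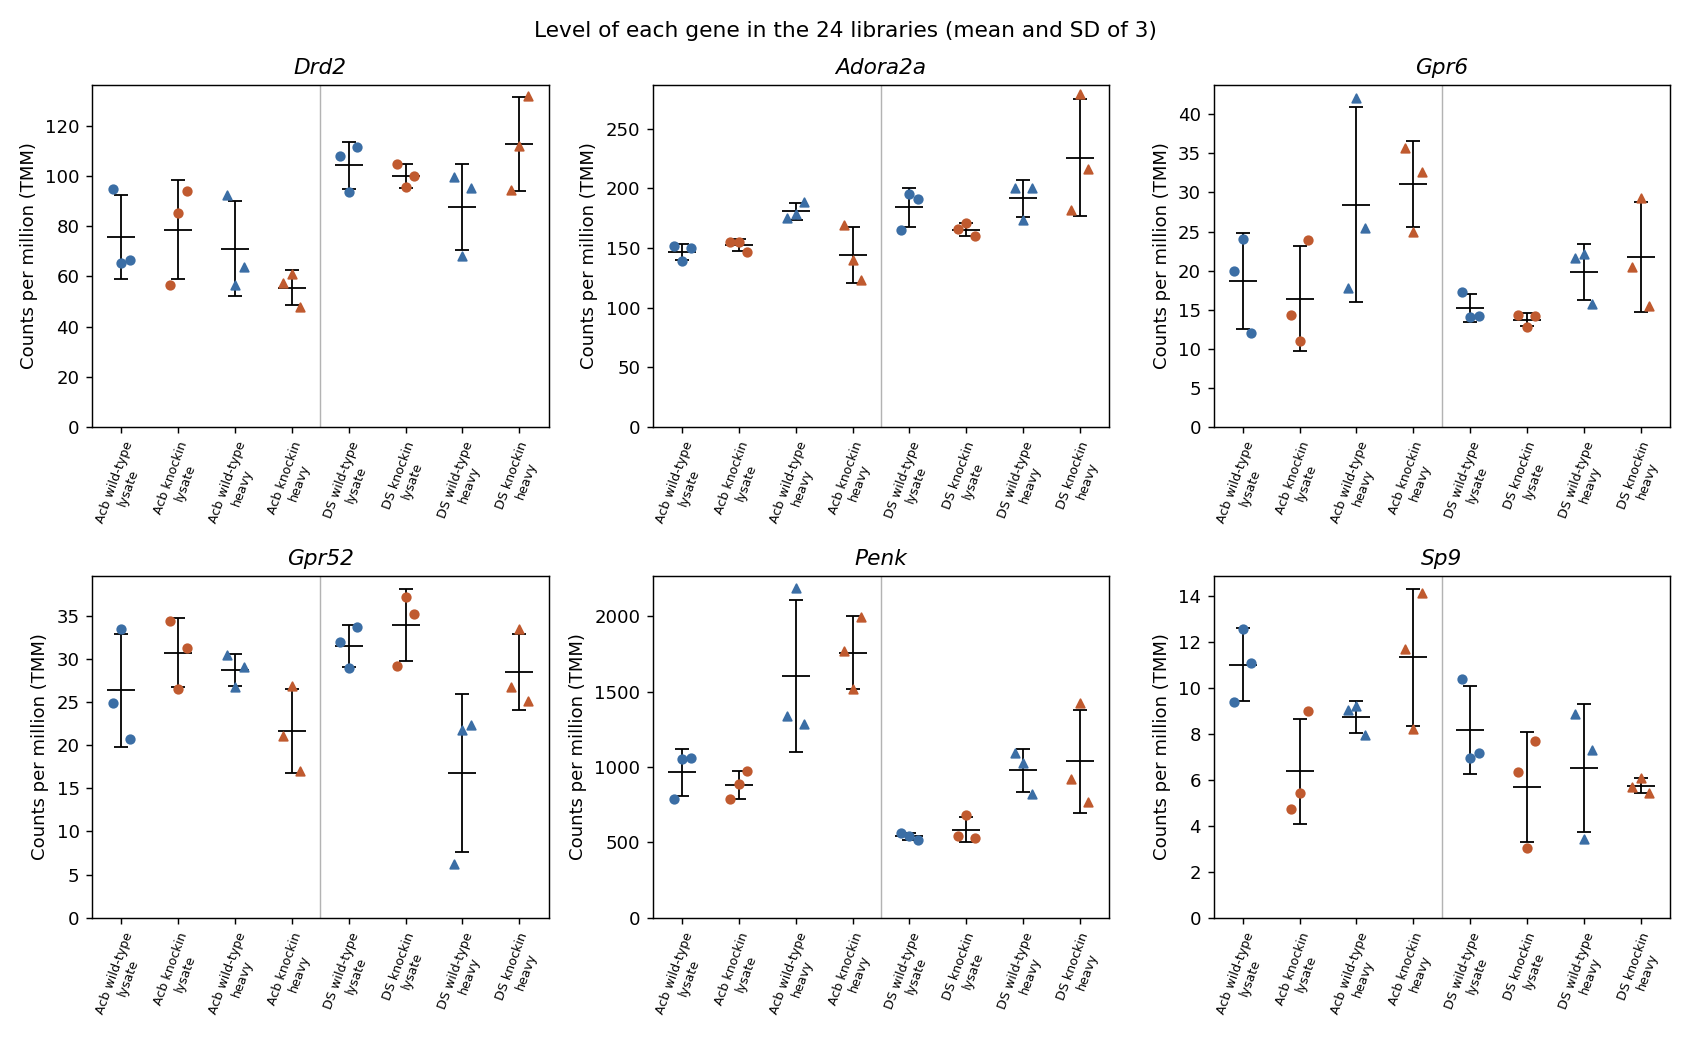
Level of each gene in CPM (vertical axis, from 0) in the 8 groups, with points for single libraries (blue wild-type, orange knockin, circles lysates, triangles heavy polysomal fractions) and bars for the mean and SD of 3; the grey line parts Acb from DS. *Penk* lies higher on the Acb side in each kind of RNA, *Drd2* has its 4 highest group means on the DS side, and 1 wild-type DS heavy library stands at 6.20 CPM for *Gpr52*.

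The order of the 8 group means differed between the genes. For *Drd2* the 4 DS groups came first, from 113 ± 18.9 CPM in knockin heavy polysomal fractions down to 87.7 ± 17.1 in wild-type ones, and the 4 Acb groups followed, from 78.6 ± 19.7 in knockin lysates down to 55.4 ± 6.97 in knockin heavy polysomal fractions. *Adora2a* ran from 226 ± 49.0 CPM in knockin DS heavy polysomal fractions to 144 ± 23.1 in knockin Acb ones. For *Penk* and *Gpr6* the 4 heavy groups came first, led by the Acb. *Penk* ran from 1760 ± 241 CPM in knockin Acb heavy polysomal fractions to 541 ± 22.5 in wild-type DS lysates, and *Gpr6* from 31.1 ± 5.49 in knockin Acb heavy polysomal fractions to 13.7 ± 0.86 in knockin DS lysates. *Gpr52* ran from 33.9 ± 4.15 CPM in knockin DS lysates to 16.8 ± 9.16 in wild-type DS heavy polysomal fractions, and *Sp9* from 11.3 ± 2.97 in knockin Acb heavy polysomal fractions to 5.69 ± 2.40 in knockin DS lysates. As a description and not a test, 37 of the 42 gaps between adjacent means were smaller than the larger of the 2 SDs. The wider gaps were 565 CPM under the Acb heavy groups and 296 CPM under the Acb lysates for *Penk*, 15.3 and 13.1 CPM on either side of the knockin DS lysates for *Adora2a*, and 2.27 CPM under the wild-type Acb lysates for *Sp9*. A wider gap did not mean a passed test. *Adora2a* did not pass between knockin lysates of the regions (edgeR, adjusted p = 0.721). *Sp9* did not pass between wild-type Acb lysates and heavy polysomal fractions (edgeR, adjusted p = 0.367).

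The comparison of regions asked which of these RNAs differ between the ventral and the dorsal striatum. *Penk* was higher in the Acb in all 4 comparisons, whereas the dopamine receptor transcript *Drd2* had lower values there in all 4, passing the test in 2. In wild-type lysates *Penk* measured 786, 1051 and 1061 CPM in the Acb and 562, 544 and 517 in the DS, so the lowest Acb library lay above the highest DS one. The log2 difference, Acb minus DS, was 0.86 ± 0.11 (SE), a 1.82-fold higher level (edgeR, adjusted p = 8.44e-08). In knockin lysates *Penk* measured 786, 885 and 974 CPM in the Acb against 546, 682 and 530 in the DS, again without overlap, with a log2 difference of 0.61 ± 0.10 (edgeR, adjusted p = 9.99e-06). In wild-type heavy polysomal fractions the Acb libraries held 1339, 2186 and 1285 CPM and the DS libraries 1095, 1024 and 820. The Acb libraries were above all of the DS here too, with a log2 difference of 0.72 ± 0.19 (edgeR, adjusted p = 0.0279). In knockin heavy polysomal fractions the values were 1767, 1516 and 1998 CPM against 922, 1425 and 769, with a log2 difference of 0.78 ± 0.20 (edgeR, adjusted p = 0.00753). The calls in heavy polysomal fractions rest on single libraries. By edgeR, the wild-type one was lost without Acb replicate 2 (0.43, adjusted p = 0.179), DS replicate 1 (0.81, adjusted p = 0.0598) or DS replicate 3 (0.59, adjusted p = 0.143), and the knockin one without DS replicate 3 (0.60, adjusted p = 0.0554). In lysates it held without any 1 library.

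*Drd2* in wild-type lysates measured 94.9, 65.3 and 66.5 CPM in the Acb and 108, 93.7 and 111 in the DS. One Acb library reached into the DS range while the others lay well under it. The log2 difference was -0.43 ± 0.15 (edgeR, adjusted p = 0.0466), and this call was lost without Acb replicate 2 (-0.33, adjusted p = 0.263) or 3 (-0.35, adjusted p = 0.174), without DS replicate 1 (-0.41, adjusted p = 0.145) or 3 (-0.38, adjusted p = 0.160), and with DESeq2's test (-0.43, adjusted p = 0.0586). In knockin lysates the Acb held 56.4, 85.4 and 94.0 CPM against 105, 95.4 and 99.9 in the DS, without overlap, yet the log2 difference of -0.33 ± 0.15 did not pass (edgeR, adjusted p = 0.179). The widest difference was in knockin heavy polysomal fractions, where the Acb libraries held 57.5, 61.1 and 47.7 CPM and the DS libraries 94.4, 112 and 132. *Drd2* there was 0.50 times its DS level, a log2 difference of -1.0 ± 0.18 (edgeR, adjusted p = 6.21e-04), and this call held without any 1 library. In wild-type heavy polysomal fractions the Acb values of 92.5, 56.8 and 63.8 CPM overlapped the DS values of 99.7, 68.1 and 95.3, with a log2 difference of -0.29 ± 0.20 (edgeR, adjusted p = 0.457). With libraries scaled on genes common to medium spiny neurons, the *Drd2* difference shrank to -0.12 in wild-type lysates (edgeR, adjusted p = 0.663), -0.066 in knockin lysates and -0.074 in wild-type heavy polysomal fractions, while the knockin heavy polysomal fractions kept their call at -0.70 (edgeR, adjusted p = 0.0114). That scaling also moved the median of all genes up, to 0.25 to 0.32, so the shift is not particular to *Drd2*. As tissue was measured in bulk, fewer D2 neurons and less *Drd2* RNA per neuron cannot be told apart, and the same holds for each gene here.

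*Adora2a*, for the receptor that opposes D2 signalling, had smaller differences than *Drd2* in each comparison under TMM scaling. The genes were not tested against each other. Reads of *Drd2* per read of *Adora2a* overlapped between the regions in every comparison. They ran from 0.44 to 0.62 in wild-type Acb lysates against 0.48 to 0.65 in the DS, and from 0.34 to 0.44 in knockin Acb heavy polysomal fractions against 0.40 to 0.61 in the DS. *Adora2a* in wild-type lysates measured 152, 139 and 150 CPM in the Acb against 165, 196 and 191 in the DS. The regions did not overlap, but the log2 difference of -0.30 ± 0.12 did not pass the test (edgeR, adjusted p = 0.119), and its sign turned when libraries were scaled on genes of medium spiny neurons (0.0095). In knockin heavy polysomal fractions the Acb held 169, 140 and 123 CPM and the DS 182, 279 and 216. Here *Adora2a* was lower in the Acb by a log2 difference of -0.63 ± 0.19 (edgeR, adjusted p = 0.0236), a call lost without Acb replicate 2 (-0.60, adjusted p = 0.0779) or 3 (-0.53, adjusted p = 0.0630), without DS replicate 2 (-0.45, adjusted p = 0.150), and with that other scaling (-0.31, adjusted p = 0.250). In the remaining comparisons its log2 difference was -0.08 ± 0.15 in wild-type heavy polysomal fractions and -0.09 ± 0.11 in knockin lysates, and both signs turned with the scaling on medium spiny neuron genes (0.15 and 0.17).

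*Gpr6*, a receptor with high constitutive activity towards adenylyl cyclase, had log2 differences between 0.28 and 0.53 in favour of the Acb, none past the threshold. In knockin heavy polysomal fractions (0.53, edgeR, adjusted p = 0.122) it came to pass without DS replicate 2 (0.80, edgeR, adjusted p = 0.0376), with the scaling on medium spiny neuron genes (0.85, adjusted p = 0.00628), and with the length trend removed without (0.68, adjusted p = 0.0428) or with (0.72, adjusted p = 0.0287) a replicate block. Its Acb libraries ran from 10.9 to 42.1 CPM and its DS libraries from 12.8 to 29.3 over both kinds of RNA and both genotypes. *Gpr52*, a receptor that couples to stimulatory G proteins, had no common direction. Its log2 difference was 0.77 ± 0.33 in wild-type heavy polysomal fractions (edgeR, adjusted p = 0.183) and -0.37 ± 0.22 in knockin ones (edgeR, adjusted p = 0.247), with -0.23 ± 0.21 and -0.11 ± 0.20 in wild-type and knockin lysates. The wild-type DS heavy libraries of *Gpr52* stood at 6.20, 21.8 and 22.4 CPM, and the lowest of them rests on 68 reads. *Sp9* rose in the Acb in knockin heavy polysomal fractions, where 11.7, 8.19 and 14.1 CPM stood against 5.70, 6.09 and 5.44 in the DS. The log2 difference was 0.99 ± 0.29 (edgeR, adjusted p = 0.0192), and it lost the call without Acb replicate 1 (0.97, adjusted p = 0.0569) or 3 (0.80, adjusted p = 0.126). In the other 3 comparisons *Sp9* had log2 differences of 0.18 to 0.45 that did not pass.

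Counted together, 1 of the 6 genes was called higher in the Acb and 0 lower in wild-type heavy polysomal fractions, where 4.72% and 3.43% of all genes tested were called in these directions. In knockin heavy polysomal fractions 2 were higher and 2 lower, against 7.89% and 10.7% of all genes. In wild-type lysates 1 was higher and 1 lower, against 6.54% and 6.15%, and in knockin lysates 1 was higher and 0 lower, against 4.84% and 6.03%. The median log2 difference of the 6 was 0.48, 0.08, 0.06 and 0.04 in these comparisons in turn, with 0.03, 0.01, 0.01 and 0.00 for all genes. When libraries were scaled on genes common to medium spiny neurons, the median of all genes moved to 0.25 to 0.32 in the comparisons of regions, and each member's difference moved up with it. *Penk* passed the test under that scaling in all 4 comparisons, with log2 differences of 0.88 to 1.18. Since the scaling moved genes in general up, this is no separate support for its calls.

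**Figure D2:**
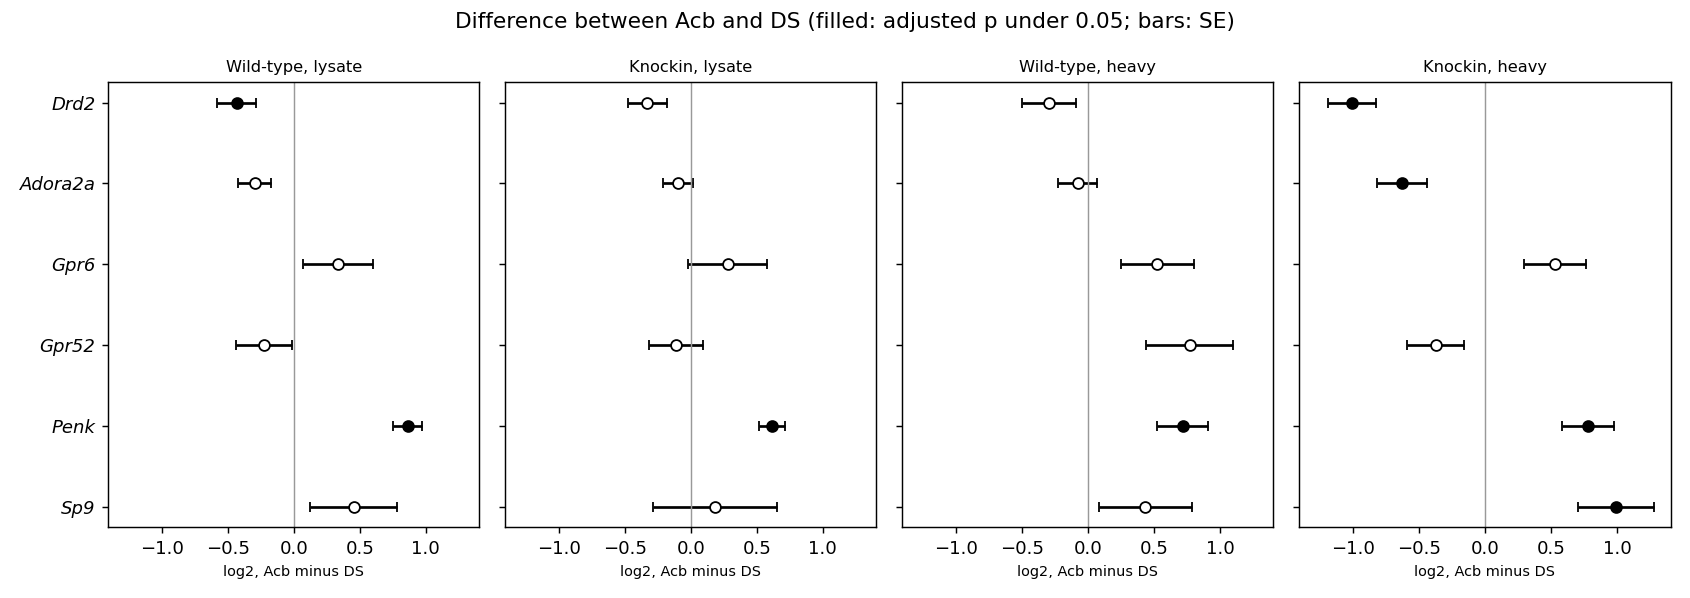
Log2 difference between Acb and DS (horizontal axis, above 0 where the Acb is higher) for each gene in the 4 comparisons of regions, with the SE as bars and filled circles for adjusted p under 0.05 (edgeR). *Penk* is filled and to the right in every panel, and *Drd2* is to the left in every panel.

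A ratio of reads within a library does not depend on how libraries are scaled. Reads of *Penk* per read of *Adora2a* came to 2.96 ± 0.38 (SD, n = 3) in wild-type DS lysates and 6.60 ± 1.26 in wild-type Acb lysates, and to 3.53 ± 0.40 and 5.80 ± 0.80 in the knockin. In heavy polysomal fractions they came to 5.15 ± 0.95 and 8.90 ± 2.94 in wild-type mice and to 4.58 ± 0.88 and 12.5 ± 3.23 in the knockin, DS before Acb. The regions did not overlap in any of these pairs. Reads of *Penk* per read of *Drd2* ran from 4.64 to 5.81 in wild-type DS lysates and from 8.28 to 16.1 in the Acb ones, and from 5.20 to 7.15 against 10.4 to 13.9 in knockin lysates. In heavy polysomal fractions they ran from 5.82 to 12.7 in the knockin DS against 24.8 to 41.9 in the knockin Acb, while in wild-type mice the DS range of 8.60 to 15.1 met the Acb range of 14.5 to 38.5.

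**Figure D3:**
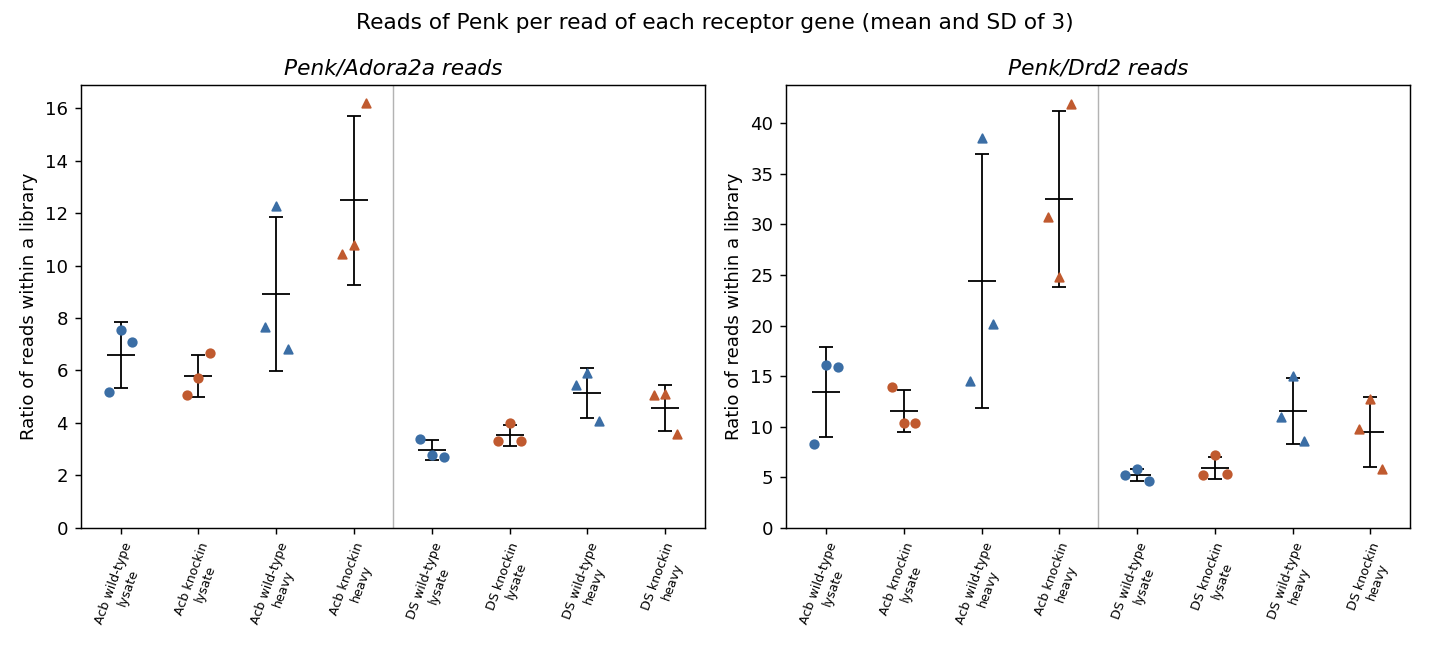
Reads of *Penk* per read of *Adora2a* (left) and of *Drd2* (right) in each library (vertical axes, from 0), with blue points for wild-type, orange for knockin, circles for lysates, triangles for heavy polysomal fractions, and bars for the mean and SD of 3. The ratios on the Acb side lie above those of the matching DS group, except where the wild-type heavy groups of *Drd2* meet.

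The indirect-pathway genes were set beside their direct-pathway counterparts. Reads of *Drd2* per read of *Drd1*, the gene of the D1 receptor, averaged 0.46 to 0.53 in the 4 DS groups and 0.21 to 0.33 in the 4 Acb groups. Single libraries of the regions overlapped in wild-type heavy polysomal fractions (0.39 to 0.52 in the DS, 0.22 to 0.42 in the Acb). They also overlapped in knockin lysates (0.40 to 0.52 in the DS, 0.23 to 0.42 in the Acb). Reads of *Penk* per read of *Pdyn*, the precursor of the dynorphin peptides of direct-pathway neurons, averaged 8.98 to 16 in the DS and 3.57 to 6.03 in the Acb. Reads of *Penk* per read of *Tac1*, the substance P precursor of direct-pathway neurons, did not part the regions, averaging 2.94 to 4.09 in the DS groups and 2.87 to 4.31 in the Acb groups. *Pdyn* itself was higher in the Acb, with a log2 difference of 2.02 in wild-type lysates (edgeR, adjusted p = 4.67e-15). Of 9 direct-pathway genes, 3 were called higher and 0 lower in wild-type lysates (median 0.42), with *Tac1* at 1.04 and the transcription factor *Isl1* at 0.91. Of 5 further genes of indirect-pathway neurons, 0 were higher and 1 lower (median -0.26), the lower one being *Plxdc1* at -0.89. The other comparisons were less one-sided. Direct-pathway genes gave 3 higher and 1 lower in heavy polysomal fractions of each genotype, and 3 and 2 in knockin lysates. The further indirect-pathway genes gave 0 and 0 in wild-type heavy polysomal fractions, 1 and 1 in knockin ones, and 0 and 1 in knockin lysates. The higher one was *Six3* (0.58, edgeR, adjusted p = 0.0222).

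Genes of the wider pathway varied in both directions between regions. In wild-type lysates 0 of 15 genes common to medium spiny neurons were called higher in the Acb and 8 lower (median -0.36). *Rasd2*, a striatal small GTPase, fell by 0.85 on the log2 scale, *Pde10a*, the main phosphodiesterase of these neurons, by 0.79 and *Arpp19* by 0.79. Of 21 genes for signalling below these receptors, 1 was higher and 7 lower (median -0.06), with the G protein regulator *Rgs4* at -1.36 and the inhibitory G protein subunit *Gnai2* at 0.63. Some of these genes are also in the list before, and *Pde10a* counts among the lower ones of both. Of 8 genes that process enkephalin or receive it, 1 was higher and 2 lower (median -0.16). *Cpe*, the carboxypeptidase that trims the enkephalin precursor, was higher by 0.61, while *Mme*, which degrades enkephalin, was at -1.06 and the convertase *Pcsk2* at -0.37. The values were similar in knockin lysates, where *Cpe* was at 0.39 and *Mme* at -1.26.

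Other cell types differed between the dissections as well, and their part in the results was not tested. In wild-type lysates 6 of 8 cortical excitatory neuron genes were lower in the Acb and 0 higher (median -3.05), and their summed level ran from 120 to 284 CPM over the Acb libraries and from 814 to 1057 over the DS ones. Microglial genes were higher for 7 of 8 (median 0.97), astrocyte genes for 5 of 7 (median 0.64) and oligodendrocyte genes for 4 of 8 (median 0.38), with 0 lower in each. Genes of cholinergic interneurons, which also transcribe *Drd2*, were higher for 2 of 5 (median 0.51), and their summed level was 63.5 to 99.8 CPM in the Acb and 33.7 to 58.9 in the DS. Genes of dopamine neurons, the other *Drd2*-expressing cells, were higher for 2 of 4 (median 1.46), at summed levels of 17.8 to 34.4 CPM against 5.16 to 13.2, and *Slc18a2* was at 0 in all 3 wild-type DS lysates. Choroid plexus genes were higher for 2 of 4 tested (median 1.64), and 0 of 8 endothelial genes were called (median 0.45).

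The next comparison asked how much of each RNA was carried by heavy polysomes relative to the lysate. *Penk* was higher in heavy polysomal fractions in all 4 combinations of region and genotype, and no library of one kind reached the other within a combination. In the wild-type DS the heavy libraries held 1095, 1024 and 820 CPM against 562, 544 and 517 in the lysates, a log2 difference of 0.86 ± 0.14 (SE; edgeR, adjusted p = 2.93e-05). In the wild-type Acb, 1339, 2186 and 1285 CPM stood against 786, 1051 and 1061, a log2 difference of 0.68 ± 0.17 (edgeR, adjusted p = 0.00308). The knockin gave 0.98 ± 0.15 in the Acb (edgeR, adjusted p = 5.33e-05) and 0.79 ± 0.14 in the DS (edgeR, adjusted p = 1.22e-05). The longest *Penk* transcript measures 1449 bases, the shortest of the 5 known. With the trend on transcript length taken out of each library and the lysate as a block, the *Penk* difference was 0.29 in the wild-type Acb (edgeR, adjusted p = 0.0700), 0.34 in the wild-type DS (edgeR, adjusted p = 0.0399, but 0.36 and adjusted p = 0.0625 without the block), 0.24 in the knockin DS (edgeR, adjusted p = 0.200) and 0.80 in the knockin Acb (edgeR, adjusted p = 6.79e-08). The size in 3 of the 4 combinations thus depends on how transcript length is handled.

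For the receptors the picture was mixed. *Drd2* did not pass in any combination, with log2 differences of -0.14 ± 0.18 in the wild-type Acb, -0.25 ± 0.17 in the wild-type DS, -0.53 ± 0.20 in the knockin Acb (edgeR, adjusted p = 0.0639) and 0.14 ± 0.15 in the knockin DS. With the length trend removed and the lysate as a block it was lower on heavy polysomes in the wild-type DS (-0.48, edgeR, adjusted p = 0.0154) and in the knockin Acb (-0.68, adjusted p = 0.00278), and DESeq2 also called the latter (-0.55, adjusted p = 0.0379). *Adora2a* was higher on heavy polysomes of the knockin DS, with 182, 279 and 216 CPM against 166, 171 and 160 in the lysates. This difference of 0.41 ± 0.14 (edgeR, adjusted p = 0.0211) was lost without lysate 2 (0.26, adjusted p = 0.358) or 3 (0.42, adjusted p = 0.0662) and with the length trend removed and the lysate as a block (0.20, adjusted p = 0.354). Leaving out a lysate removed the heavy and lysate libraries of that number together. Without lysate 2 the heavy library at 279 CPM was therefore gone as well. In the other combinations *Adora2a* did not pass, at 0.25 ± 0.14 in the wild-type Acb, 0.06 ± 0.15 in the wild-type DS and -0.10 ± 0.16 in the knockin Acb.

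*Gpr6* was higher in heavy polysomal fractions of the knockin Acb, with 35.6, 25.0 and 32.6 CPM against 14.3, 10.9 and 23.9. The log2 difference of 0.90 ± 0.27 (edgeR, adjusted p = 0.0197) was lost without lysate 1 (0.71, adjusted p = 0.248) or 2 (0.80, adjusted p = 0.106). With the length trend removed it was 0.70 (edgeR, adjusted p = 0.0632), and with the lysate as a block as well 0.74 (edgeR, adjusted p = 0.0174). In the other combinations *Gpr6* had log2 differences of 0.38 to 0.62 that did not pass. *Gpr52* fell on heavy polysomes of the wild-type DS, with 6.20, 21.8 and 22.4 CPM against 31.9, 28.9 and 33.7 in the lysates. All heavy libraries lay under all lysates, at a log2 difference of -0.89 ± 0.29 (edgeR, adjusted p = 0.0242). Without lysate 1, the source of the library at 6.20 CPM, the difference was -0.51 (edgeR, adjusted p = 0.220), and without lysate 3 it was -1.11 (adjusted p = 0.121). *Sp9* had log2 differences from -0.38 ± 0.29 in the wild-type Acb to 0.81 ± 0.35 in the knockin Acb (edgeR, adjusted p = 0.118), none past the threshold.

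In the wild-type Acb 1 of the 6 genes was called higher in heavy polysomal fractions and 0 lower, against 13% and 12.9% of all genes tested. In the wild-type DS 1 was higher and 1 lower, against 12.8% and 11.5%. In the knockin Acb 2 were higher and 0 lower, against 7.7% and 9.5%, and in the knockin DS 2 were higher and 0 lower, against 13.8% and 14.8%. The median log2 difference of the 6 was 0.16, -0.10, 0.35 and 0.27 in this order, with 0.03, 0.00, 0.01 and 0.03 for all genes. In the wild-type DS, direct-pathway genes were called higher for 1 of 9 and lower for 0 (median 0.18), that gene being *Tac1* at 1.27. The 8 enkephalin processing and receptor genes gave 2 higher, *Scg5* at 0.80 and *Cpe* at 0.38, and 1 lower, the delta opioid receptor gene *Oprd1* at -1.23 (median -0.24).

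**Figure D4:**
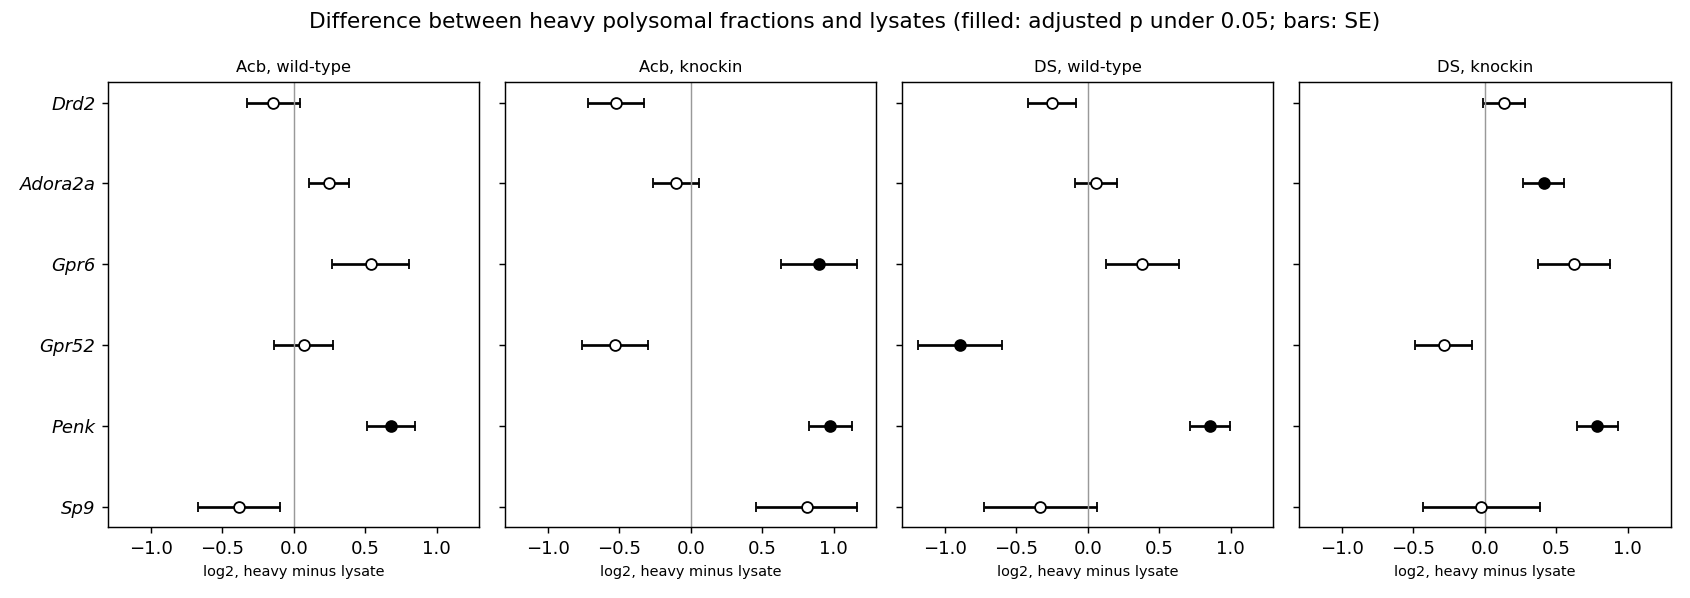
Log2 difference between heavy polysomal fractions and lysates (horizontal axis, above 0 where heavy polysomal fractions are higher) for each gene in the 4 combinations of region and genotype, with the SE as bars and filled circles for adjusted p under 0.05 (edgeR). *Penk* is filled and to the right in every panel, whereas *Drd2* is open in every panel.

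The knockin was compared with wild-type to ask whether rpS6 phosphorylation bears on these RNAs. None of the 6 genes passed the test in any of the 4 genotype comparisons. On heavy polysomes of the Acb 0 of 6 were called, as were 0% of all 16227 genes, and 0 of the 6 had an unadjusted p under 0.05, against 3518 of all genes (21.7%). DESeq2 called 1090 genes in this comparison and 0 of the 6. For heavy polysomal RNA of the DS 0 of 6 were called against 0.044% of all genes, in Acb lysates 0 against 0.0065% and in DS lysates 0 against 0.122%. An unadjusted p under 0.05 was found for 6.42%, 2.96% and 9.07% of all genes in these 3 comparisons in turn, and for 1 member in all, *Gpr52* on heavy polysomes of the DS. DESeq2 called 17, 1 and 95 genes and 0 of the 6 in each.

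On heavy polysomes of the Acb the D2 receptor transcript measured 57.5, 61.1 and 47.7 CPM in the knockin and 92.5, 56.8 and 63.8 in the wild-type, a log2 difference, knockin minus wild-type, of -0.32 ± 0.19 (edgeR, adjusted p = 0.340). *Adora2a* measured 169, 140 and 123 against 175, 178 and 189 CPM there. The genotypes did not overlap, but the log2 difference of -0.29 ± 0.16 did not pass (edgeR, adjusted p = 0.298). *Penk* differed by 0.17 ± 0.19, with a 95% interval of -0.35 to 0.70, and *Gpr6*, *Gpr52* and *Sp9* by 0.17 ± 0.26, -0.37 ± 0.19 and 0.41 ± 0.24. On heavy polysomes of the DS, *Gpr52* measured 26.7, 33.5 and 25.1 CPM in the knockin and 6.20, 21.8 and 22.4 in the wild-type. The groups did not overlap, with a log2 difference of 0.76 ± 0.29 (edgeR, unadjusted p = 0.0117, adjusted p = 0.689). *Drd2* differed there by 0.37 ± 0.19, *Adora2a* by 0.25 ± 0.18, *Penk* by 0.10 ± 0.18, *Gpr6* by 0.15 ± 0.26 and *Sp9* by -0.17 ± 0.42.

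Lysates show the steady-state RNA. There *Penk* differed by -0.14 ± 0.11 in the Acb and 0.10 ± 0.09 in the DS, with 95% intervals of -0.44 to 0.17 and -0.16 to 0.35. *Drd2* differed by 0.04 ± 0.17 and -0.08 ± 0.12, and *Adora2a* by 0.05 ± 0.13 and -0.17 ± 0.11. *Sp9* had the widest differences. In Acb lysates it measured 4.72, 5.42 and 8.96 CPM in the knockin against 9.39, 12.5 and 11.1 in the wild-type, without overlap, at -0.79 ± 0.40 (edgeR, unadjusted p = 0.0531, adjusted p = 1.0), and in DS lysates it differed by -0.54 ± 0.38 (edgeR, adjusted p = 0.730). *Gpr6* and *Gpr52* differed by -0.20 ± 0.30 and 0.22 ± 0.23 in the Acb and by -0.16 ± 0.25 and 0.09 ± 0.18 in the DS. None of the genes in the marker and pathway lists passed the test in these 4 comparisons either, where few genes of any kind did. Over all genes 0 were called on heavy polysomes of the Acb, 7 on those of the DS, 1 in Acb lysates and 19 in DS lysates. The lists were not examined with DESeq2.

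**Figure D5:**
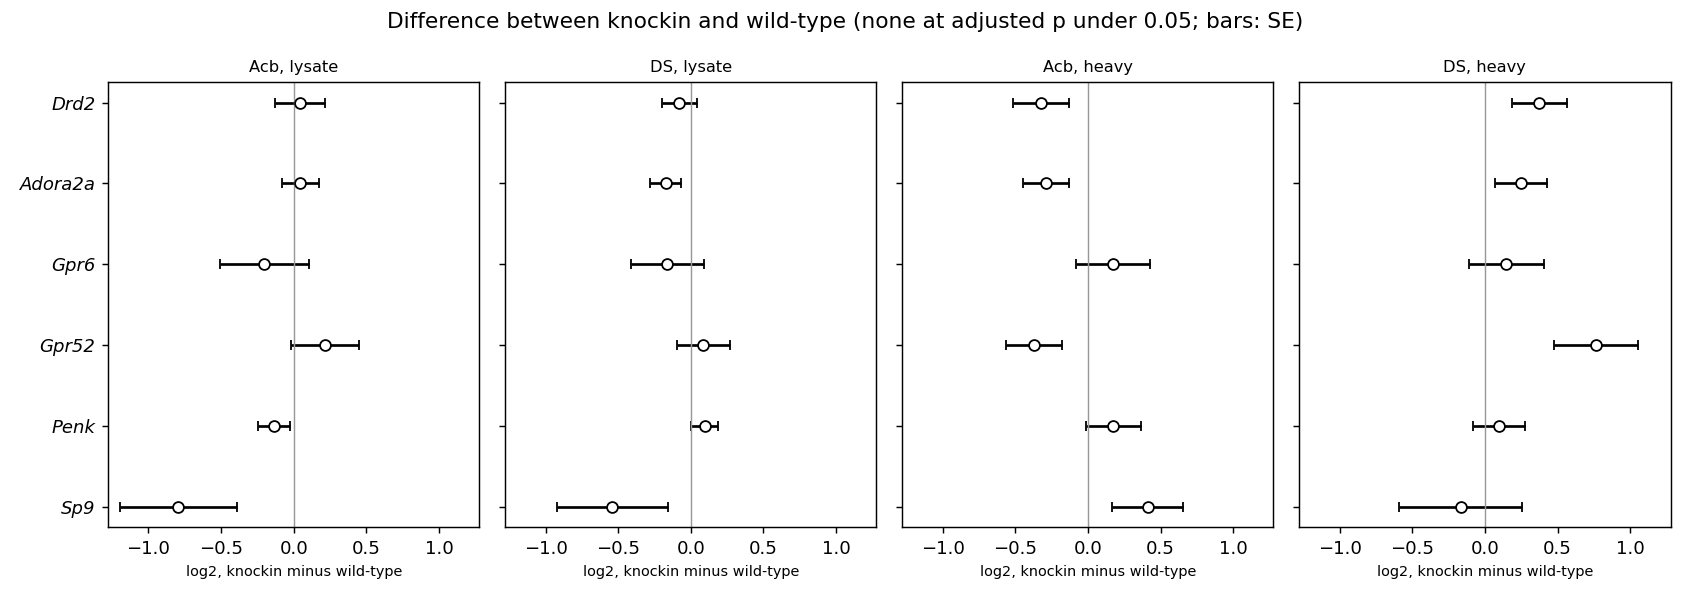
Log2 difference between knockin and wild-type (horizontal axis, above 0 where the knockin is higher) for each gene in lysates and heavy polysomal fractions of both regions, with the SE as bars. Every circle is open, since 0 of the 6 genes had an adjusted p under 0.05 (edgeR) in any panel.

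Translational efficiency, the level in heavy polysomal fractions relative to the lysate, was compared between genotypes in one model over the 12 libraries of a region. In the Acb 0 of 6 genes were called, as were 0% of all genes, and 1 of the 6 had an unadjusted p under 0.05, as did 11.9% of all genes. That gene was *Sp9*, with a log2 change of efficiency, knockin against wild-type, of 1.21 ± 0.46 (edgeR, unadjusted p = 0.0125, adjusted p = 0.316). *Gpr52* was at -0.59 ± 0.31, *Drd2* at -0.37 ± 0.27, *Adora2a* at -0.34 ± 0.21, *Gpr6* at 0.37 ± 0.40 and *Penk* at 0.31 ± 0.23. In the DS 0 of 6 were called, again as for 0% of all genes, and 0 of the 6 had an unadjusted p under 0.05, against 4.90% of all genes. There *Gpr52* was at 0.64 ± 0.36, *Drd2* at 0.42 ± 0.22, *Adora2a* at 0.39 ± 0.21, *Sp9* at 0.34 ± 0.59, *Gpr6* at 0.28 ± 0.36 and *Penk* at -0.03 ± 0.21. The receptor genes *Drd2*, *Adora2a* and *Gpr52* thus had negative estimates in the Acb and positive ones in the DS, without passing the test in either. The receptor gene *Gpr6* had positive estimates in both regions. With a lysate left out, the DS estimate of *Gpr52* ran from 0.24 to 0.91. This model leaves aside which heavy and lysate libraries share a number. With that number as a block edgeR called 106 genes in the Acb and 6 in the DS, again with 0 of the 6 among them. DESeq2 called 0 genes in either region.

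The difference of genotype effects between regions was tested directly. In heavy polysomal fractions 0 of 6 genes were called, against 0.00592% of all genes. With the replicate number as a block edgeR called 117 genes and DESeq2 called 236, in each case with 0 of the 6 among them. An unadjusted p under 0.05 was found for 3 of the 6 and for 13.8% of all genes. The effect of the knockin in the Acb minus that in the DS was -1.12 ± 0.41 for *Gpr52* (edgeR, unadjusted p = 0.0117, adjusted p = 0.221), -0.68 ± 0.28 for *Drd2* (unadjusted p = 0.0202, adjusted p = 0.263) and -0.52 ± 0.24 for *Adora2a* (unadjusted p = 0.0366, adjusted p = 0.320). *Penk*, *Gpr6* and *Sp9* were at 0.09 ± 0.30, 0.04 ± 0.38 and 0.59 ± 0.46. The wide region difference of *Drd2* in the knockin and the narrower one in wild-type heavy polysomal fractions are therefore not shown to differ. In lysates 0 of 6 were called against 0.00611% of all genes, 0 had an unadjusted p under 0.05, against 5.11% of all genes, and estimates ran from -0.26 ± 0.57 for *Sp9* to 0.22 ± 0.16 for *Adora2a*. Whether loading on heavy polysomes differed between regions was tested in wild-type mice, where 0 of 6 were called, as were 0% of all genes. An unadjusted p under 0.05 was found for 767 of all 16684 genes and for 1 of the 6, *Gpr52* at 0.93 ± 0.39 (edgeR, unadjusted p = 0.0218, adjusted p = 1.0), which again rests on the DS library with 68 reads. For *Penk* the shift to heavy polysomes in the Acb minus that in the DS was -0.21 ± 0.23. DESeq2 called 0 genes in the test on lysates and 1 in that on wild-type mice, and 0 of the 6 in either.

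Although they mark the same neurons, the 6 genes did not vary together over the 24 libraries. As a description, Pearson's r of log2 levels was 0.81 for *Penk* and *Gpr6*, 0.57 for *Drd2* and *Adora2a*, and -0.67 for *Drd2* and *Penk*, and the remaining 12 pairs ranged from -0.50 to 0.44. The libraries share region, kind of RNA and lysates in pairs. After the group means were taken out, r was 0.60 for *Penk* and *Gpr6*, 0.22 for *Drd2* and *Adora2a* and -0.35 for *Drd2* and *Penk*. *Penk* made up 59.1 to 89.5% of all reads of the 6 genes in a library, so their summed reads mainly follow the peptide precursor.

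Genes most like each member over the 24 libraries were listed by r, again as a description. For *Drd2* the highest value was 0.91, with *Ppp2r2c*, and for *Adora2a* 0.89, with *Cacng3*. For *Penk* it was 0.95, with *Cpe*, followed by *Itm2c* at 0.94 and *C1galt1c1* at 0.94. *Gpr6* came closest to *Gfap* at 0.84, *Gpr52* to *Vps13c* at 0.91, and *Sp9* to *Adsl* at 0.75. The mean of the 6 standardised levels was most like *Adam15* at 0.78, *C630043F03Rik* and *Slc46a1* at 0.72, *Ly86* at 0.70, *Synpr* at 0.69, *Fam134c*, *Papd4* and *Degs1* at 0.68, and *Susd4* and *Txndc12* at 0.67, among 11973 genes.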

How the data were processed

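Single-end stranded RNA-seq of whole cytosolic lysates and heavy polysomal fractions was available for 24 libraries in 8 groups of 3. The authors deposited raw counts per gene for 24079 genes. Per the methods and the submitters' processing notes, reads were aligned with TopHat2 2.0.13 and Bowtie2 2.2.3 to mm10 with UCSC genes, alignments with more than 3 mismatches were dropped, and reads on the gene's strand were counted with HTSeq 0.6.1p1 in union mode, so reads shared between genes are lost. Library totals set the precision of low genes, and *Sp9* and *Gpr6* rest on the fewest reads.

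Groups were taken from the labels. Each comparison was fitted to its own libraries with edgeR 4.0.16 in R 4.3.3 (TMM, genes with 15 or more reads over the libraries compared, quasi-likelihood test with the legacy setting, Benjamini-Hochberg over all genes tested, threshold 0.05), with interaction terms for translational efficiency and for differences between regions. DESeq2 1.42.0 was an alternative. The other alternatives were its size factors, a filter by filterByExpr or of 1 read, edgeR without the legacy setting, all 24 libraries in 1 fit, scaling on genes common to medium spiny neurons, removal of the trend of counts on transcript length (loess on the longest GENCODE M21 transcript, which lacks *Gpr52*), a replicate block, and each library left out. Levels per kilobase used the same transcripts. Where heavy polysomal fractions and lysates entered the same comparison, the heavy and lysate libraries of the same number were left out together. The 95% intervals used the SE with a t quantile on the number of libraries less the terms fitted. They are wider than edgeR's own test implies. Scripts were tested on simulated data.

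The 6 genes were named in every comparison, and from each of 13 marker and pathway lists at most the 3 called genes with the largest change were named. Genes most like the 6 were the 10 with the highest Pearson correlation to their mean standardised log2 CPM. Those most like each single gene were listed in addition. The members and lists were chosen with earlier results of these data known. Per the extraction protocol in the labels, heavy and lysate RNA come from one lysate, and libraries of one number were taken as paired. The methods describe heavy polysomal fractions of several samples joined per replicate, so this pairing is not certain. Their deviations from group means correlated at -0.04 to 0.07 over 12 pairs.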

Additional observations from a re-analysis of the deposited data

How the results depend on the processing

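Of 986 values of single genes under settings other than leaving out a library, 936 kept their direction and side of the threshold, 13 came to pass it, 16 ceased to pass it and 21 changed sign. Of 612 values with a library, or a lysate's heavy and lysate libraries together, left out, 543 kept direction and side, 2 came to pass, 19 ceased to and 48 changed sign. None of the 69 sign changes concerned a gene called in the comparison as reported, and the cause was not tested for any.

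The number of the 6 genes called between regions was 1 in wild-type heavy polysomal fractions and became 2 with the replicate block (*Gpr52* 0.93, edgeR, adjusted p = 0.00406) and 2 with all 24 libraries in 1 fit, with 0 to 1 when a library was left out. In knockin heavy polysomal fractions it was 4, and 2 to 4 with a library left out. With the replicate block *Adora2a* no longer passed there (-0.62, edgeR, adjusted p = 0.0565). In wild-type lysates it was 2, and 1 with filterByExpr, DESeq2, edgeR without the legacy setting, scaling on medium spiny neuron genes or all libraries in 1 fit, and 1 to 2 with a library left out. Between heavy polysomal fractions and lysates it was 1 in the wild-type Acb and 0 with the length trend removed, with or without the replicate block. It was 2 in the wild-type DS, *Penk* and *Gpr52*, and 1 to 2 with a lysate left out. With the length trend removed, a fit that lacks *Gpr52*, it was 1. That gene was *Drd2* (-0.47, edgeR, adjusted p = 0.0364), while *Penk* no longer passed (0.36, edgeR, adjusted p = 0.0625). With the replicate block as well, both *Drd2* and *Penk* passed. It was 2 in the knockin Acb, 1 to 2 with a lysate left out, and 3, with *Drd2* added, with DESeq2, no filter beyond 1 read, all libraries in 1 fit, or the replicate block with the length trend removed. It was 2 in the knockin DS, 0 with the length trend removed, with or without the replicate block, and 1 to 2 with a lysate left out. Calls over all genes moved with the settings too. Between regions, the replicate block raised them from 1316 to 2247 of 16143 in wild-type heavy polysomal fractions. It lowered them from 2997 to 2623 of 16108 in knockin ones. DESeq2 raised them from 1975 to 2079 of 15557 in wild-type lysates, and from 2704 to 3121 of 15721 between fractions of the knockin Acb.

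Scaling on medium spiny neuron genes turned the sign of the region difference of *Adora2a* in wild-type heavy polysomal fractions (0.15), wild-type lysates (0.0095) and knockin lysates (0.17), and of *Gpr52* in wild-type (0.079) and knockin (0.15) lysates. It also turned the genotype difference of *Penk* in DS heavy polysomal fractions (-0.00075) and of *Drd2* (-0.021) and *Adora2a* (-0.026) in Acb lysates. Removing the length trend turned the fraction difference of *Adora2a* (-0.15) and *Gpr6* (-0.029) in the wild-type DS and of *Drd2* (-0.070) and *Sp9* (0.15) in the knockin DS. With the replicate block as well these were -0.14, -0.039, -0.077 and 0.24. The replicate block alone put *Sp9* in the knockin DS at 0.065. With all libraries in 1 fit *Sp9* stood there at 0.011, the genotype by region value of *Gpr6* in heavy polysomal fractions at -0.0054 and the fraction by region value of *Sp9* at 0.00085, the last at 0.00038 with filterByExpr. The block changed no call between heavy polysomal fractions and lysates when used alone. Only heavy and lysate libraries were taken as paired by their source. Across genotypes and regions a shared number is only a number, with correlations of deviations from -0.29 to 0.32 and from -0.26 to 0.22 over 12 pairs each.

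With a library, or a lysate's heavy and lysate libraries together, left out, the following differences took either sign. Between genotypes, *Gpr6* ranged from -0.077 to 0.57 in Acb heavy polysomal fractions, from -0.13 to 0.34 in DS ones and from -0.58 to 0.019 in Acb lysates, *Penk* from -0.19 to 0.27 in DS heavy polysomal fractions and from -0.022 to 0.17 in DS lysates, *Sp9* from -0.47 to 0.10 in DS heavy polysomal fractions, and *Drd2* from -0.11 to 0.25 in Acb lysates. Between regions in knockin lysates, *Gpr6* ranged from -0.086 to 0.50 and *Sp9* from -0.14 to 0.47. Between fractions, *Gpr52* ranged from -0.075 to 0.32 in the wild-type Acb, *Adora2a* from -0.051 to 0.17 in the wild-type DS and *Sp9* from -0.36 to 0.30 in the knockin DS. For translational efficiency in the DS, *Gpr6* ranged from -0.052 to 0.50, *Penk* from -0.20 to 0.079 and *Sp9* from -0.0018 to 0.66. For genotype by region in heavy polysomal fractions, *Gpr6* ranged from -0.21 to 0.43 and *Penk* from -0.12 to 0.39, and in lysates *Drd2* from -0.030 to 0.33, *Gpr52* from -0.015 to 0.32, *Gpr6* from -0.41 to 0.18 and *Sp9* from -0.58 to 0.015. For fraction by region, *Gpr6* ranged from -0.051 to 0.43, *Penk* from -0.43 to 0.0031 and *Sp9* from -0.21 to 0.18. Groups of 3 pools and counts down to 45 reads limit what could be detected for *Sp9*, *Gpr6* and *Gpr52*.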

Other observations

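Among the genes common to medium spiny neurons, heavy polysomal fractions of the wild-type DS held more *Arpp19* (log2 difference 0.95, edgeR, adjusted p = 1.77e-05) and *Ppp1r1b*, which encodes DARPP-32 (0.79, edgeR, adjusted p = 3.34e-05), and less *Pde10a* (-0.71, edgeR, adjusted p = 6.81e-04) than lysates. In this list 5 of 15 genes were called higher and 5 lower, with a median of -0.16. *Scg5*, which encodes the chaperone of the convertase *Pcsk2*, was called higher in heavy polysomal fractions in all 4 combinations of region and genotype, with log2 differences of 0.80 to 0.89.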
